A study of Homo sapiens with 4 samples.

Results

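Collagens are the main structural proteins of the extracellular matrix, and this report describes the genes of their chains in WI-38, an established line of fibroblasts from human fetal lung whose cells divide a limited number of times in culture. The members are the protein-coding genes whose symbol is COL, a number, A and a number. The annotation holds 44 such genes, and 43 of them were found among 19000 protein-coding genes with a value. COL26A1 is not analysed here. The 43 genes have 319 transcripts with an Ensembl identifier, of which 146 are protein-coding, and a gene's value below is the sum of its protein-coding transcripts unless another sum is named. The symbol chose each member and no measured value of it did, though the family was taken up with earlier results of these data known.

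RNA was sequenced from 4 groups with 1 library each. Senescent mitoplasts and senescent whole cells came from WI-38 cells at a population doubling level of 60, and young mitoplasts and young whole cells from cells of the same line at a level of 21. A mitoplast is a mitochondrion without its outer membrane. For the mitoplast groups a hypotonic buffer swelled the crude mitochondria, and RNase A was applied both before and after the mitoplasts were pelleted, whereas whole-cell RNA had no such treatment. All cells grew in the same medium with serum, no other agent is named, and the single line limits the results to WI-38. Values are FPKM, the fragments of a transcript scaled by its length and by the mapped fragments of the library, so levels of different chains can be set side by side within a library. Without replicates no value has an error and no difference has a test, and a difference between libraries cannot be told apart from a difference between conditions. In bulk RNA, fewer cells of a kind and less RNA per cell cannot be told apart either.

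A collagen molecule is a triple helix wound from alpha chains, which are encoded by separate genes and joined in the endoplasmic reticulum. Fibrillar collagens (types I, II, III, V, XI, XXIV and XXVII) form the fibres of connective tissue. Type IV forms the sheet of basement membranes, in which the multiplexins XV and XVIII also lie. Type VI forms beaded filaments around cells, types VIII and X form networks, type VII forms anchoring fibrils, FACIT collagens sit on the surface of fibrils, and types XIII, XVII, XXIII and XXV span the plasma membrane. In fibroblasts of the lung, types I and III are the bulk of the secreted matrix.

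The fibroblast label was checked with 8 marker genes. DCN, which encodes the fibroblast proteoglycan decorin, was at 237 FPKM in senescent mitoplasts, 295 in young mitoplasts, 706 in senescent whole cells and 895 in young whole cells. THY1, a surface marker of fibroblasts, was at 38.6 FPKM in senescent mitoplasts, 123 in young mitoplasts, 335 in senescent whole cells and 334 in young whole cells. In whole cells 8 of the 8 fibroblast markers in the senescent library and 6 of 8 in the young one reached 1 FPKM. In mitoplasts 3 of the 8 did so in the senescent library, where the other 5 were listed at 0, and 6 of 8 in the young one. Of the blood and immune markers 0 of 5 reached 1 FPKM in any library. Of the endothelial markers TEK alone reached 1 FPKM, with at most 28.8 FPKM, and the summed epithelial markers lay between 22.2 and 23.5 FPKM. The summed chondrocyte markers were at 0.499 FPKM in senescent mitoplasts, 12.3 in young mitoplasts, 7.47 in senescent whole cells and 14.2 in young whole cells. Of these markers SOX9 was listed at 0 in senescent mitoplasts and ACAN was at 0.221 or less in each library. The summed smooth muscle markers, of which MYH11 was listed at 0 throughout and CNN1 and ACTA2 gave nearly all, were at 97.4 FPKM in senescent mitoplasts, 389 in young mitoplasts, 405 in senescent whole cells and 251 in young whole cells. VIM, which encodes vimentin, was listed at 0 in senescent mitoplasts, against 4312 FPKM in young mitoplasts, so a value of 0 in that library can be a failed estimate. Young whole cells held 1196 coding genes with at least 50 FPKM, and of these 22.2% had a value of 0 in senescent mitoplasts, 5.18% in young mitoplasts and 3.60% in senescent whole cells. MKI67, a marker of dividing cells, was at 0.264 FPKM in senescent whole cells, against 12.1 in young whole cells. CCNB1, another such marker, was at 2.99 FPKM in senescent and 21.1 in young whole cells. TOP2A and LMNB1, the other proliferation markers, were listed at 0 in every library, so a 0 in whole cells can be a failed estimate as well.

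Of the 43 collagen genes, 29 reached 1 FPKM in some library and 20 reached 10 FPKM. COL4A3, COL4A4, COL9A3 and COL11A2 were above 0 in no library. In young whole cells COL1A1, COL6A2, COL6A1, COL4A2, COL1A2 and COL6A3 had the highest FPKM of the family, in that order, and most of the COL4A2 value lies in a transcript of 484 nt. The type VI chains were between 11.2-fold and 19.6-fold lower in senescent than in young whole cells, while COL1A1 was 1.77-fold lower and COL8A1, a chain of the short network collagen VIII, was 3.30-fold higher. In the mitoplast pair the type VI chains also had the lowest log2 ratios, taken with 1 FPKM added to each value. This was among the chains at 10 FPKM or more in some library that had a value above 0 in both mitoplast libraries. By FPKM alone COL18A1 was 10.9-fold lower in senescent than in young mitoplasts, beyond COL6A1 at 9.61-fold. Most abundant chains had lower FPKM in mitoplasts than in whole cells of the same age.

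**Figure D1:**
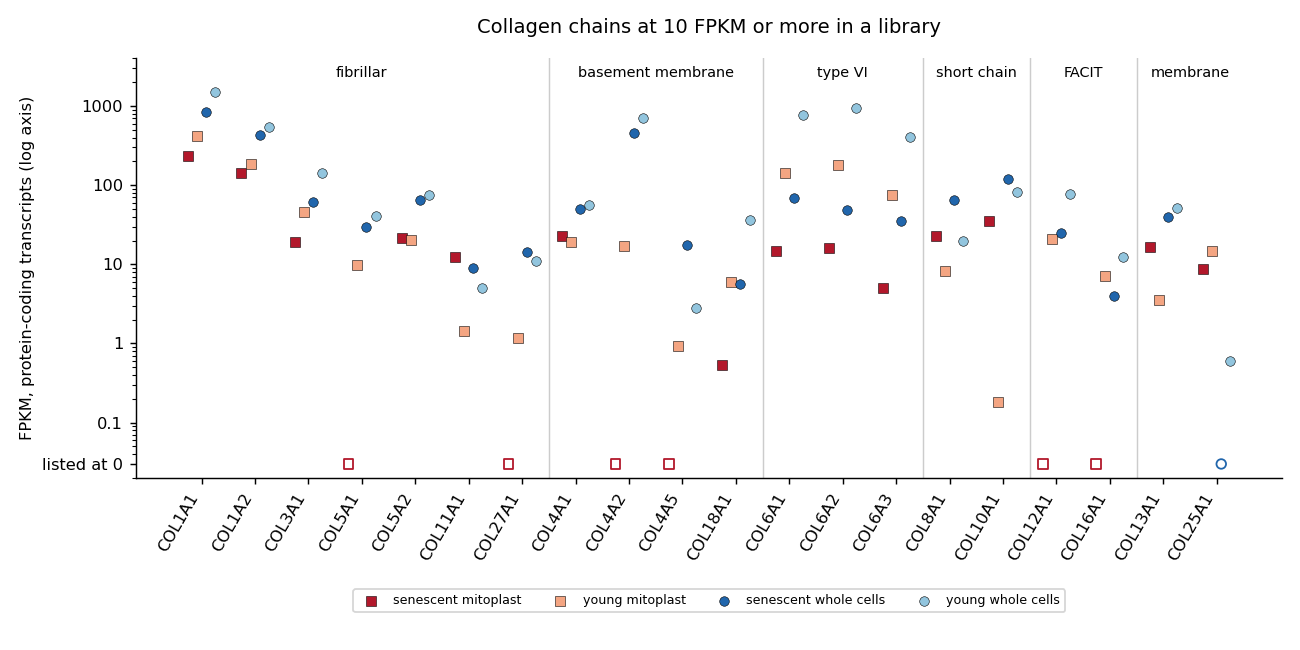
FPKM of protein-coding transcripts on a log axis for the 20 collagen genes at 10 FPKM or more in a library, grouped by class, with 1 point per library and open symbols for values listed at 0. The type VI points of senescent whole cells lie below those of young mitoplasts, whereas the type I points of senescent whole cells lie between those of young mitoplasts and young whole cells.

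Promoter sequences are shown for the 2 gene groups on which the results turn, type VI, whose chains had the lowest ratios of senescent against young whole cells among the measured collagens, and the type IV pair, which lies head to head. They are RefSeq sequences on build GRCh38.p14, read 5′ to 3′ on the gene's strand and ending at the base before the annotated start. Of the 43 collagen genes, 31 had an entry, with 43 promoters in all. Capitals mark 3 motifs that were searched on both strands. The first is CCAAT, known as the CCAAT box. The second has the letters GGGCGG and is known as the GC box. The third, TATAAA, is the core of the TATA box. The 250 bases before the start of COL6A2, at chr21:46097862-46098111 on the plus strand, hold 4 GC boxes and 1 TATAAA, and 79.6% of their bases are G or C. The 250 bases before the start of COL6A3, at chr2:237414165-237414414 on the minus strand, hold 0 matches to the 3 motifs, and 56.0% of their bases are G or C.
COL6A2: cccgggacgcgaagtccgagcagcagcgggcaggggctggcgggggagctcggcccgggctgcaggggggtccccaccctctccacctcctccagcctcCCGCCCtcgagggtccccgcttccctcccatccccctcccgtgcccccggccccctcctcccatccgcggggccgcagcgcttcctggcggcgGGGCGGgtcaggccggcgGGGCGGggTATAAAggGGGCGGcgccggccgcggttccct
COL6A3: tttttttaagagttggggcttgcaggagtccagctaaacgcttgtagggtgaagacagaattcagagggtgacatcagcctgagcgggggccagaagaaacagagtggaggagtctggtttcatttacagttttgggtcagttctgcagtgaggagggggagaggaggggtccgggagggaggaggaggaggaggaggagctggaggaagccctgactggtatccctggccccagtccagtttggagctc
The starts of COL4A1 and COL4A2 lie 127 bases apart on opposite strands, so both genes share the 126 bases between them, at chr13:110307158-110307283, shown on the strand of COL4A2. This interval holds 1 CCAAT and 1 GC box, and 80.2% of its bases are G or C.
COL4A1-COL4A2 interval: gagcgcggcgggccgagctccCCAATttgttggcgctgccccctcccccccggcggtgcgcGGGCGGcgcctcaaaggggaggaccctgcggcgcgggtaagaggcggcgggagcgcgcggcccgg
Over 35116 RefSeq promoters of 250 bases, 32.0% held CCAAT, 42.6% the GC box and 10.7% TATAAA. Among the 43 collagen promoters 12 held CCAAT (27.9%), 24 the GC box (55.8%) and 8 TATAAA (18.6%). None of the 3 motifs was in both of the type VI promoters shown.

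Each ratio is log2((A + 1)/(B + 1)), with A and B in FPKM, and the difference of a low gene is understated by it. A gene was measured in a comparison when it reached 1 FPKM in either library, and it was called higher or lower at a log2 ratio of 1 or more in size. In whole cells the senescent library was set against the young one for 24 collagen genes. Of these 4 were higher and 10 lower, where 15.5% of 9556 measured coding genes were higher and 22.4% lower. The median log2 ratio was −0.53 over the 24 collagens and −0.18 over the coding genes. Members under 1 FPKM in a library numbered 2 in the senescent and 2 in the young one, and these 4 members were measured only through the other library.

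In mitoplasts the senescent library was set against the young one for 26 collagen genes, of which 6 were higher and 13 lower. Among 9052 measured coding genes 15.6% were higher and 65.0% lower, and the median log2 ratio was −0.99 for the collagens and −1.55 for the coding genes. Members under 1 FPKM numbered 10 in senescent mitoplasts, of which 7 were listed at 0, and 3 in young mitoplasts. The 2 libraries differed in scale as well, since all coding genes summed to 118377 FPKM in senescent mitoplasts and to 870101 FPKM in young mitoplasts. That sum was 319102 FPKM in senescent whole cells and 521021 FPKM in young whole cells. Whether the scale set these ratios was not tested beyond the rescalings given with them.

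Collagen held a larger part of the message in whole cells than in mitoplasts of the same age. Its protein-coding FPKM was 0.489% of all protein-coding FPKM in senescent mitoplasts, 0.138% in young mitoplasts, 0.749% in senescent whole cells and 1.06% in young whole cells. Without the genes of the mitochondrial genome these shares were 0.655% in senescent mitoplasts, 0.435% in young mitoplasts, 0.820% in senescent whole cells and 1.57% in young whole cells. The young whole-cell share was the highest under both denominators and the young mitoplast share the lowest.

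The type VI share of the collagen message differed with age in both fractions. Type VI held 6.17% of the collagen FPKM in senescent mitoplasts, against 33.4% in young mitoplasts. In whole cells it held 6.41% in the senescent library, against 38.8% in the young one. Type I held 64.8% in senescent mitoplasts and 50.8% in young mitoplasts, and 53.2% in senescent whole cells and 37.1% in young whole cells. These shares do not depend on a library's scale. Limited to transcripts of 1000 nt or more, type VI held 6.60% in senescent mitoplasts, 34.1% in young mitoplasts, 8.23% in senescent whole cells and 44.3% in young whole cells. The senescent libraries thus had a type VI share under 10% and the young libraries one above 30%, in both fractions and by both counts.

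**Figure D2:**
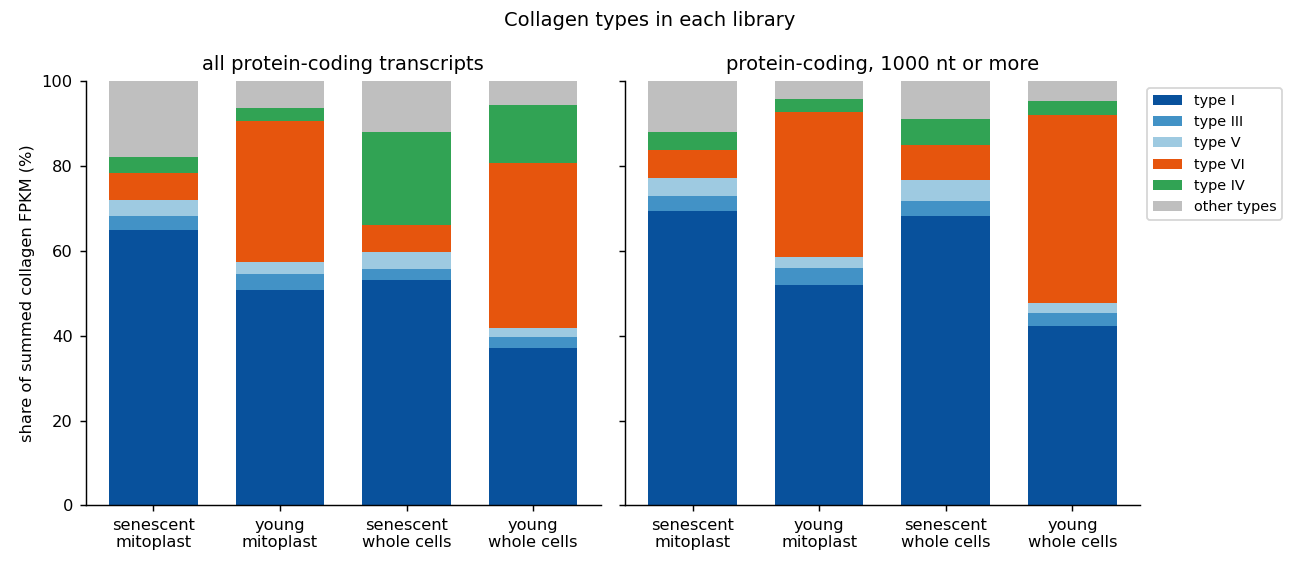
Share of summed collagen FPKM by collagen type in each library, as stacked bars from 0 to 100%, for all protein-coding transcripts (left) and for those of 1000 nt or more (right). The type VI segment spans 6.17% and 6.41% in the senescent libraries on the left, against 33.4% and 38.8% in the young ones, and the type IV segment of whole cells is far smaller on the right.

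Type VI is built from COL6A1 (ENSG00000142156) and COL6A2 (ENSG00000142173), short chains encoded on chromosome 21, and COL6A3 (ENSG00000163359), a long chain encoded on chromosome 2. COL6A1 was at 14.9 FPKM in senescent mitoplasts, 144 in young mitoplasts, 69.5 in senescent whole cells and 782 in young whole cells. COL6A2 was at 15.9 FPKM in senescent mitoplasts, 182 in young mitoplasts, 48.2 in senescent whole cells and 946 in young whole cells. COL6A3 was at 4.95 FPKM in senescent mitoplasts, 75.9 in young mitoplasts, 35.5 in senescent whole cells and 411 in young whole cells. All 3 genes were highest in young whole cells and lowest in senescent mitoplasts, and young mitoplasts lay above senescent whole cells.

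The log2 ratio between senescent and young whole cells was −3.47 for COL6A1, −4.27 for COL6A2 and −3.50 for COL6A3. These are levels 11.2-fold, 19.6-fold and 11.6-fold lower in the senescent library. Every alternative that gave a value kept these 3 calls, and the smallest ratios in size were −2.77 for COL6A1, −3.57 for COL6A2 and −2.80 for COL6A3 with each library scaled to an equal sum. The chains stood at rank 770 (COL6A1), 1083 (COL6A2) and 1421 (COL6A3) among coding genes in senescent whole cells, against ranks 77, 61 and 159 in young whole cells.

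The log2 ratio between senescent and young mitoplasts was −3.18 for COL6A1, −3.44 for COL6A2 and −3.69 for COL6A3, or 9.61-fold, 11.5-fold and 15.3-fold lower levels in the senescent library. With each library scaled to an equal sum the ratio was −0.38 for COL6A1, −0.63 for COL6A2 and −1.03 for COL6A3, so that the calls of COL6A1 and COL6A2 were lost without a change of sign. In that scaling the median over all coding genes was −0.28. The mitoplast values of 2 chains also lie partly in other annotated transcripts: a processed transcript of COL6A1 of 968 nt was at 14.1 FPKM in senescent and 133 in young mitoplasts and at 0 in whole cells, and a retained intron of COL6A2 was at 12.3 FPKM in senescent mitoplasts. With these included, COL6A2 had a log2 ratio of −2.65 between senescent and young mitoplasts.

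The proportions of the type VI chains were closer than their levels. COL6A1 was at 3.02 times the FPKM of COL6A3 in senescent mitoplasts, 1.89 times in young mitoplasts, 1.96 times in senescent whole cells and 1.90 times in young whole cells. With all annotated transcripts counted it was at 5.87 times in senescent and 3.64 times in young mitoplasts, and unchanged in whole cells. COL6A2 was at 1.06 times the FPKM of COL6A1 in senescent mitoplasts, 1.27 times in young mitoplasts, 0.693 times in senescent whole cells and 1.21 times in young whole cells. Over all annotated transcripts COL6A2 was at 0.969 times the FPKM of COL6A1 in senescent mitoplasts and 0.658 times in young mitoplasts, so its place above COL6A1 in mitoplasts depends on the transcripts counted. The alternative long chains of type VI were low: COL6A6 was under 1 FPKM in each library, and COL6A5 reached 2.46 FPKM in senescent mitoplasts, in a transcript of 1770 nt with an incomplete coding sequence, against 0.078 in young mitoplasts and 0 in whole cells of both ages.

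Among fibrillar chains, COL1A1 (ENSG00000108821) and COL1A2 make type I, the main collagen of connective tissue. COL1A1 was at 234 FPKM in senescent mitoplasts, 424 in young mitoplasts, 846 in senescent whole cells and 1501 in young whole cells. COL1A2 was at 142 FPKM in senescent mitoplasts, 187 in young mitoplasts, 425 in senescent whole cells and 543 in young whole cells. Both chains kept this order of the libraries, with whole cells above mitoplasts and young above senescent. COL1A1 ranked 46 among coding genes in senescent mitoplasts, 112 in young mitoplasts, 38 in senescent whole cells and 35 in young whole cells, so its place among messages shifted far less than that of type VI.

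The type I ratios stayed inside the call limit for age. Between senescent and young whole cells the log2 ratio was −0.83 for COL1A1 and −0.35 for COL1A2, or −0.12 and 0.35 for these genes with equal sums. For mitoplasts it was −0.86 for COL1A1 and −0.40 for COL1A2, which turned to 0.13 for COL1A1 and 0.58 for COL1A2 when scaled by the median of ratios, and to 2.02 and 2.47 with equal sums. COL1A1 was at 1.65 times the FPKM of COL1A2 in senescent mitoplasts, 2.27 times in young mitoplasts, 1.99 times in senescent whole cells and 2.77 times in young whole cells. This proportion was lower in the senescent library of each fraction over coding transcripts, and higher in it over all annotated transcripts, at 2.92 in senescent and 2.27 in young mitoplasts, and 1.99 in senescent and 1.74 in young whole cells. Retained introns lie outside these sums: 1 of COL1A1 held 180 FPKM in senescent mitoplasts, and 1 of COL1A2 held 320 FPKM in young whole cells. Counting the second, COL1A2 had a log2 ratio of −1.02 between senescent and young whole cells.

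COL3A1 encodes the chain of type III, which shares fibres with type I. It was at 19.3 FPKM in senescent mitoplasts, 46.0 in young mitoplasts, 61.7 in senescent whole cells and 144 in young whole cells. The log2 ratio of senescent against young was −1.21 in mitoplasts and −1.21 in whole cells, lower in both. With equal sums the mitoplast ratio was 1.59 and the whole-cell ratio −0.51, so neither call held there. COL1A1 was at between 9.21 and 13.7 times the FPKM of COL3A1 over the 4 libraries.

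Type V chains nucleate fibrils of type I. COL5A1 was listed at 0 in senescent mitoplasts and was at 9.92 FPKM in young mitoplasts, 29.4 in senescent whole cells and 40.4 in young whole cells. Assembled transcripts in its locus held 22.2 FPKM in senescent mitoplasts, and with them the log2 ratio of senescent against young mitoplasts was 0.40 in place of −3.45. COL5A2 was at 21.4 FPKM in senescent mitoplasts, 20.5 in young mitoplasts, 65.7 in senescent whole cells and 75.3 in young whole cells. Its levels in the 2 ages were close within each fraction, with log2 ratios of 0.06 in mitoplasts and −0.19 in whole cells; the mitoplast ratio was 2.84 with equal sums, and the whole-cell ratio was 0.50 there and 0.33 with assembled transcripts. COL5A3 stayed at 3.16 FPKM or less, with a log2 ratio of senescent against young of −1.97 in whole cells and −0.13 in mitoplasts.

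The minor fibrillar chains had other orders. COL11A1, a chain of the cartilage collagen XI, was at 12.3 FPKM in senescent mitoplasts, 1.42 in young mitoplasts, 8.87 in senescent whole cells and 4.99 in young whole cells. It was higher in senescent than in young mitoplasts by a log2 ratio of 2.46, a call that held in every alternative that gave a value, although 8.50 of its 12.3 FPKM came from a transcript of 2790 nt that was at 0 in the other libraries. COL27A1, a chain of a thin-fibril collagen, was listed at 0 in senescent mitoplasts and was at 1.18 FPKM in young mitoplasts, 14.4 in senescent whole cells and 11.0 in young whole cells. COL24A1 stayed at 4.80 FPKM or less, COL2A1, the cartilage chain, at 0.160 or less, and COL11A2 was listed at 0 throughout.

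COL4A1 and COL4A2 encode the type IV pair found in most basement membranes. COL4A1 was at 23.0 FPKM in senescent mitoplasts, 19.2 in young mitoplasts, 49.6 in senescent whole cells and 55.7 in young whole cells. COL4A2 (ENSG00000134871) was listed at 0 in senescent mitoplasts and was at 17.1 FPKM in young mitoplasts, 454 in senescent whole cells and 700.3 in young whole cells. The whole-cell values of COL4A2 were mostly those of a transcript of 484 nt with an incomplete coding sequence, at 408 FPKM in the senescent and 597 in the young library. That transcript was not listed in the mitoplast libraries.

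COL4A2 transcripts of 1000 nt or more were at 0 FPKM in senescent mitoplasts, 17.1 in young mitoplasts, 46.5 in senescent whole cells and 104 in young whole cells. On that scale COL4A2 was at 0.891 times the FPKM of COL4A1 in young mitoplasts, 0.938 times in senescent whole cells and 1.86 times in young whole cells. The log2 ratio of COL4A2 between senescent and young whole cells was −0.62 over all its coding transcripts and −1.14 over those of 1000 nt or more. For COL4A1 it was −0.16, and 0.53 with equal sums.

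COL4A5, a chain of kidney and lung basement membranes, was listed at 0 in senescent mitoplasts and was at 0.923 FPKM in young mitoplasts, 17.5 in senescent whole cells and 2.82 in young whole cells. Its log2 ratio of 2.28 between senescent and young whole cells was the highest of the collagens measured there, but a retained intron of 782 nt was at 51.5 FPKM in the senescent and 44.0 in the young library, and over all annotated transcripts the ratio was 0.55. COL4A6 stayed at 0.703 FPKM or less. COL18A1, the multiplexin chain from which endostatin is cut, was at 0.541 FPKM in senescent mitoplasts, 5.91 in young mitoplasts, 5.70 in senescent whole cells and 36.5 in young whole cells. It was lower in the senescent library in both fractions, with log2 ratios of −2.17 in mitoplasts and −2.48 in whole cells, and the mitoplast ratio was −0.42 with equal sums. Exons of SLC19A1 on the opposite strand cover 25.8% of its main transcript, and reads of the 2 genes cannot be told apart without strand. COL15A1 reached 3.69 FPKM in young mitoplasts and stayed at 0.174 or less elsewhere.

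COL8A1 (ENSG00000144810), a chain of the network around vessels and in the cornea, had the opposite order of ages to type VI. It was at 22.9 FPKM in senescent mitoplasts, 8.32 in young mitoplasts, 65.0 in senescent whole cells and 19.7 in young whole cells. The senescent library was higher by a log2 ratio of 1.36 in mitoplasts and 1.67 in whole cells, and both calls held in every alternative that gave a value. COL8A2, its partner chain, stayed at 0.156 FPKM or less. COL10A1, the chain of hypertrophic cartilage, was at 34.8 FPKM in senescent mitoplasts, 0.182 in young mitoplasts, 119 in senescent whole cells and 82.3 in young whole cells. Apart from young mitoplasts, these values lie wholly in a transcript of 303 nt with an incomplete coding sequence, inside NT5DC1 on the opposite strand.

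FACIT collagens link fibrils to their surroundings. COL12A1 was listed at 0 in senescent mitoplasts and was at 20.6 FPKM in young mitoplasts, 25.1 in senescent whole cells and 77.8 in young whole cells. Its log2 ratio of senescent against young was −1.59 in whole cells, or −0.90 with equal sums. In mitoplasts it was −4.43, or −1.66 with its assembled transcripts, which held 5.86 FPKM in senescent mitoplasts. COL16A1 was listed at 0 in senescent mitoplasts and was at 7.08 FPKM in young mitoplasts, 4.0 in senescent whole cells and 12.6 in young whole cells. Short processed transcripts of COL16A1 held 22.4 FPKM in senescent mitoplasts, and with all annotated transcripts its ratio of senescent against young mitoplasts was 1.54 in place of −3.01. COL14A1, a FACIT chain of dense tissue, reached 2.84 FPKM in young whole cells and stayed at 0.809 or less elsewhere, and the other FACIT chains stayed at 1.69 or less.

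Of the transmembrane collagens, COL13A1, which sits at cell contacts, was at 16.4 FPKM in senescent mitoplasts, 3.52 in young mitoplasts, 39.4 in senescent whole cells and 52.0 in young whole cells. It was higher in senescent than in young mitoplasts by a log2 ratio of 1.94, a call that held in every alternative that gave a value, and was at −0.39 between senescent and young whole cells, or 0.30 with equal sums. COL25A1, which is known from plaques in Alzheimer's disease, was at 8.66 FPKM in senescent mitoplasts, 14.7 in young mitoplasts, 0 in senescent whole cells and 0.601 in young whole cells. COL23A1 stayed at 1.38 FPKM or less and COL17A1, of hemidesmosomes, at 0.378 or less. COL7A1, the chain of anchoring fibrils, was at 2.89 FPKM in senescent mitoplasts, 0 in young mitoplasts, 1.05 in senescent whole cells and 4.49 in young whole cells. Its senescent mitoplast value lies in a transcript of 597 nt, while the transcript of 9276 nt gave the whole-cell values.

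**Figure D3:**
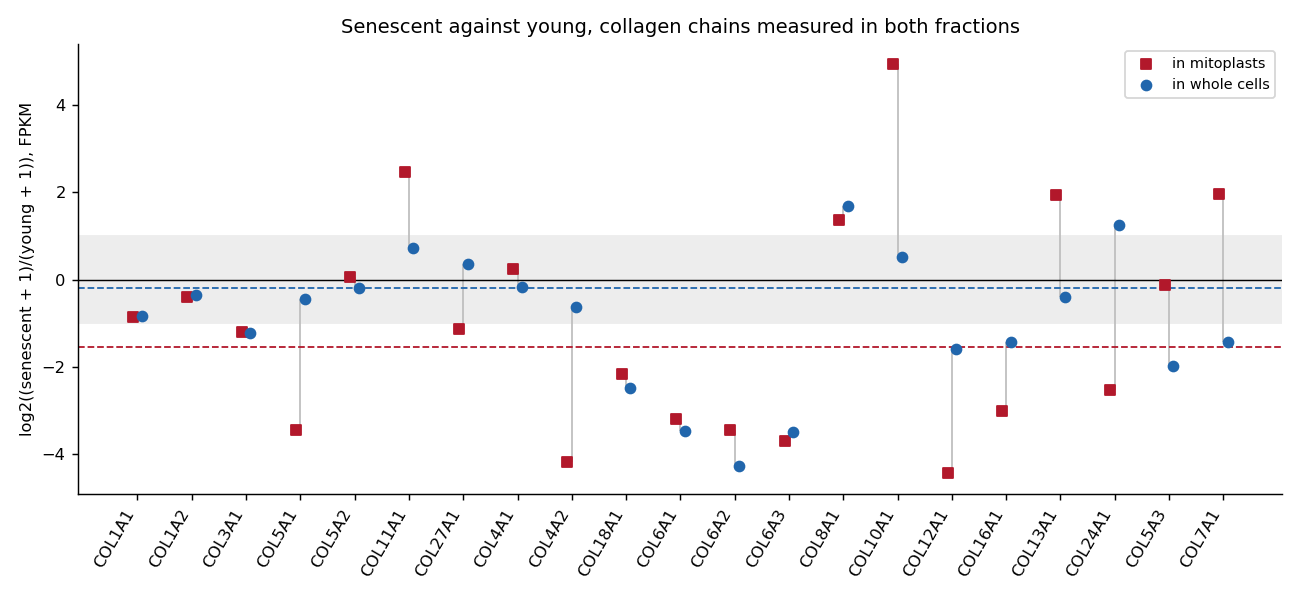
log2 ratio of senescent against young FPKM (each plus 1) for the 21 collagen genes measured in both fractions, with squares for mitoplasts and circles for whole cells; the grey band spans the ratios below 1 in size and the dashed lines mark the medians of all measured coding genes, −1.55 in mitoplasts and −0.18 in whole cells. The square and the circle nearly coincide for COL1A1, COL1A2 and COL3A1, and lie farthest apart for COL10A1, COL24A1, COL4A2 and COL7A1.

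The 2 ratios of age share no library, so they could be set beside each other for each chain. Over the 21 collagens measured in both fractions, the mitoplast ratio minus the whole-cell ratio had a median of 0.00, where the median was −1.38 over 7503 coding genes. This median hides a wide spread, from −3.79 for COL24A1 to 4.39 for COL10A1. The 2 ratios had the same sign for 15 of the 21. Among genes at 1 FPKM or more in all 4 libraries, a set chosen after the data were seen, 8 of 11 collagens (72.7%) had ratios within 1.5-fold of each other, and 802 of 2916 coding genes (27.5%) did. That set leaves out COL10A1, COL24A1, COL4A2 and COL7A1, whose 2 ratios lay farthest apart. The median difference in that set was 0.25 for the collagens and −0.69 for the coding genes. The closest pairs were COL3A1, at −1.21 in both fractions, COL1A1, at −0.86 for mitoplasts and −0.83 for whole cells, and COL1A2, at −0.40 for mitoplasts and −0.35 for whole cells. The nearness holds for the deposited scale, since with equal sums COL1A1 was at 2.02 in mitoplasts and −0.12 in whole cells.

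The second question of the design is which RNAs remain in mitoplasts. In young cells 27 collagen genes were measured with the mitoplast library set against whole cells, and 4 were higher and 19 lower. Of 9994 coding genes 18.6% were higher and 36.1% lower, and the median log2 ratio was −1.63 for the collagens and −0.40 for the coding genes. Members under 1 FPKM numbered 4 in young mitoplasts and 5 in young whole cells. Among genes that reached 10 FPKM in young whole cells, 16 of 17 collagens were lower in mitoplasts, where 47.8% of 3919 coding genes were. The medians of that set were −1.92 for the collagens and −0.91 for the coding genes.

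In senescent cells 25 collagen genes were measured, of which 3 were higher in mitoplasts and 20 lower. Of 9331 coding genes 13.3% were higher and 70.5% lower, with medians of −1.58 for the collagens and −1.76 for the coding genes. Members under 1 FPKM numbered 9 in senescent mitoplasts, 8 of them listed at 0, and 3 in senescent whole cells. Among genes that reached 10 FPKM in senescent whole cells, 16 of 16 collagens were lower in mitoplasts, where 81.8% of 3611 coding genes were. The medians of that set were −1.80 for the collagens and −2.73 for the coding genes. In that set the collagen median thus lay below that of the coding genes in young cells and above it in senescent cells, which describes 1 library of each kind. Over all measured genes the median of the collagens minus that of the coding genes was 0.18 in senescent and −1.23 in young cells, and lay between 0.66 and 0.76 in senescent and between −1.24 and −1.35 in young cells with the 2 rescalings. Without a filter on low values it was −0.073 in senescent and −0.98 in young cells, so the direction in senescent cells depends on the filter.

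The chains of types I and III had alike mitoplast ratios in both ages. This restates the nearness of their ratios of age, since both come from the same values of the same libraries. For COL1A1 the log2 ratio of mitoplasts against whole cells was −1.85 in senescent and −1.82 in young cells. For COL1A2 it was −1.58 in senescent and −1.53 in young cells, and for COL3A1 −1.62 in senescent and −1.63 in young cells. These correspond to levels between 2.91-fold and 3.62-fold lower in mitoplasts. The type VI chains were lower still in young cells, at −2.44 for COL6A1, −2.37 for COL6A2 and −2.42 for COL6A3, and in senescent cells they were at −2.15 for COL6A1, −1.55 for COL6A2 and −2.62 for COL6A3. For senescent cells these ratios depend on scale: by the median of ratios COL1A1 was at −0.50, COL1A2 at −0.23 and COL6A1 at −0.84, so that none of the 3 was called.

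COL4A2 had a log2 ratio of mitoplasts against whole cells of −8.83 in senescent and −5.28 in young cells over its coding transcripts. Its 484-nt transcript was in neither mitoplast list, and the ratio was −5.57 in senescent and −2.53 in young cells over coding transcripts of 1000 nt or more. With assembled transcripts it was −3.91 in senescent and −3.79 in young cells. COL10A1 was at −1.74 in senescent and −6.14 in young cells. COL4A2, COL5A1, COL27A1, COL4A5, COL12A1 and COL16A1 were listed at 0 in senescent mitoplasts, so their ratios there are set by the pseudocount. The collagens called higher in mitoplasts were COL25A1, COL23A1 and COL6A5 in senescent cells, and COL25A1, COL24A1, COL15A1 and COL21A1 in young cells. Each of these collagens was under 1 FPKM in whole cells of that age and was measured only through the mitoplast library. COL25A1, at 3.27 in senescent and 3.29 in young cells, was the only one of them called in both ages, and its FPKM lies in the 2500-nt transcript in senescent mitoplasts and mostly in transcripts of 316 and 428 nt in young mitoplasts.

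**Figure D4:**
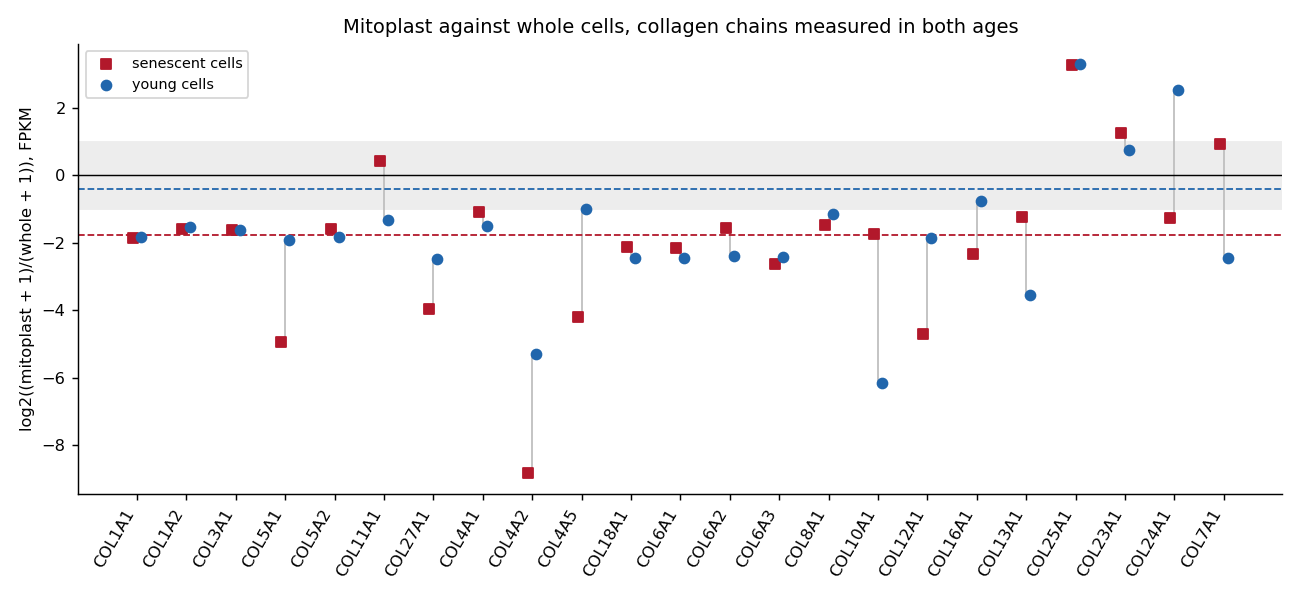
log2 ratio of mitoplast against whole-cell FPKM (each plus 1) for the 23 collagen genes measured in both ages, with squares for senescent and circles for young cells; the grey band spans ratios below 1 in size and the dashed lines mark the medians of all measured coding genes, −1.76 in senescent and −0.40 in young cells. The chains of types I, III and VI lie below the band in both ages, and COL25A1 lies above it in both.

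How much of a chain's RNA was assigned to its full coding transcripts differed between chains and libraries, as the plot of transcript classes shows. COL3A1, COL4A1, COL6A3 and COL8A1 had all of the FPKM assigned to them in coding transcripts of 1000 nt or more in each library. COL5A1, COL12A1 and COL16A1 had assembled transcripts in their loci in whole cells of both ages. Over whole libraries, assembled transcripts without an Ensembl identifier held 97.3% of the FPKM in senescent mitoplasts, 92.7% in young mitoplasts, 76.2% in senescent whole cells and 53.7% in young whole cells. Their part in the collagen ratios was looked at only for loci that hold a single gene, and in young whole cells an assembled transcript in a locus shared by COL6A3 and another gene was given to neither.

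**Figure D5:**
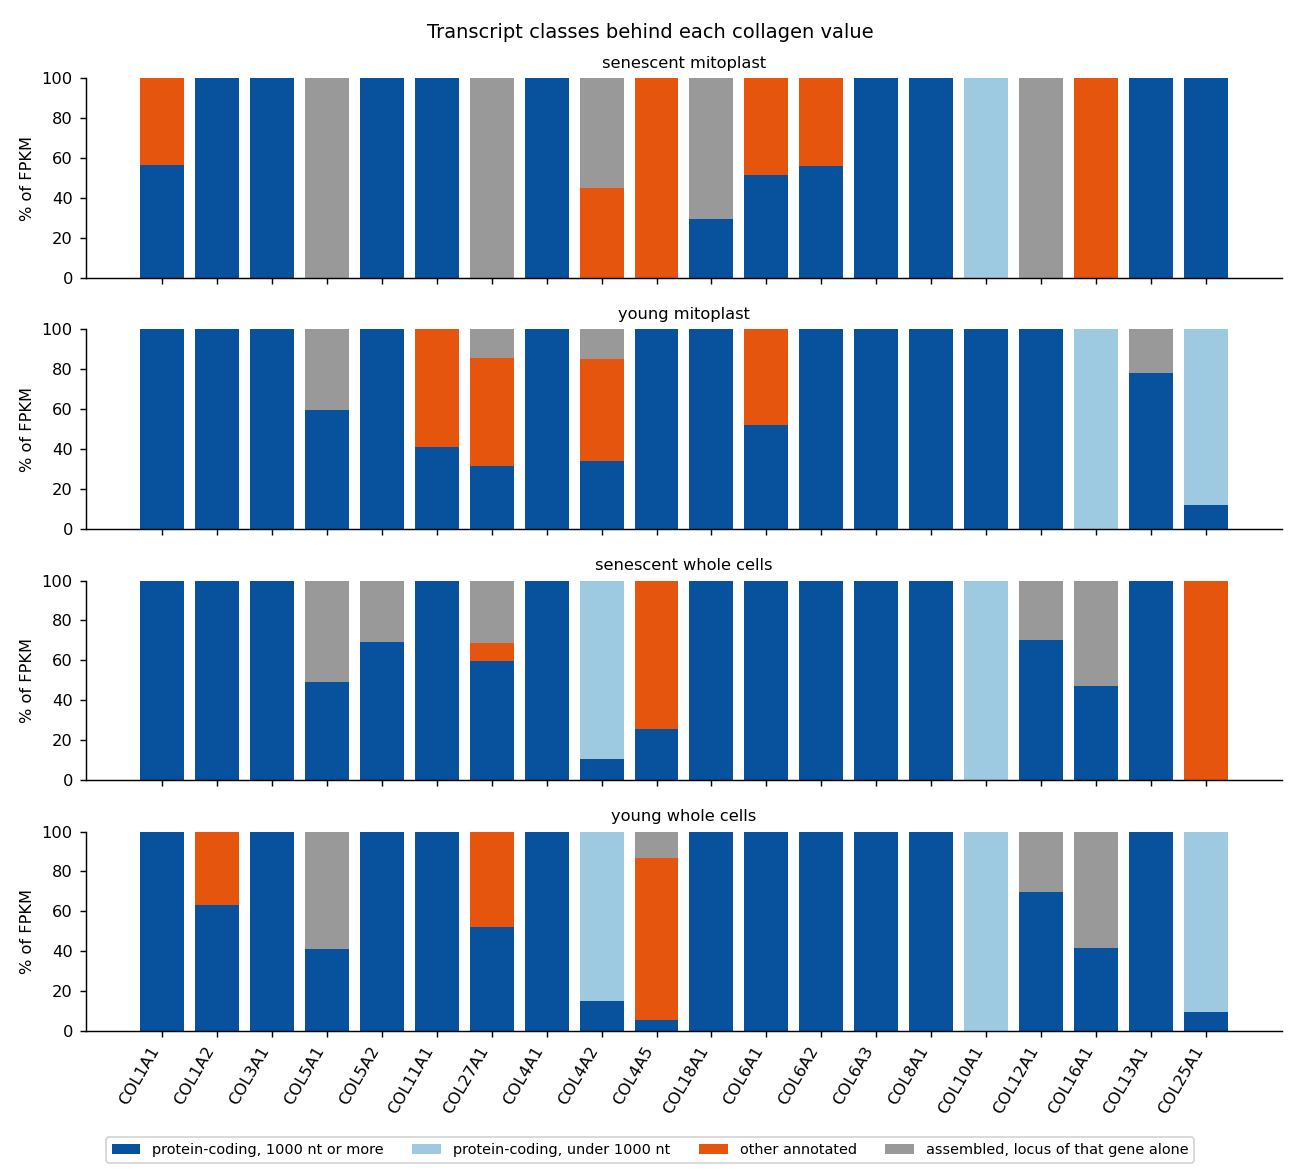
Share of each gene's FPKM (%) by class of transcript, with 1 panel per library, for the 20 collagen genes at 10 FPKM or more in a library. COL4A2 in whole cells and COL10A1 in 3 libraries rest on coding transcripts under 1000 nt, and COL5A1, COL12A1 and COL27A1 in senescent mitoplasts rest wholly on assembled transcripts.

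The enzymes and chaperones that make collagen were followed with 51 genes in 4 lists. In the whole-cell pair of senescent and young libraries 38 were measured, of which 7 were higher and 8 lower, beside 15.5% and 22.4% of coding genes. Of 21 genes for hydroxylation, folding and export, 19 were measured, with 3 higher and 4 lower. The largest ratios were those of MIA2, which helps load collagen for export and was listed at 0 in senescent whole cells, against 14.2 FPKM in young ones, P3H3, a prolyl 3-hydroxylase also listed at 0 in senescent cells, against 11.9 FPKM in young cells, and P3H4, a partner of P3H3, at 5.79 FPKM in senescent cells and listed at 0 in young cells. P3H3 was at 5.19 FPKM in senescent and 1.67 in young mitoplasts, so its 0 in senescent whole cells can be a failed estimate. PLOD2 and SERPINH1 were chosen after their values were seen. PLOD2, the lysyl hydroxylase of collagen telopeptides, was at 67.1 FPKM in senescent mitoplasts, 14.7 in young mitoplasts, 121 in senescent whole cells and 19.3 in young whole cells, and so was higher in the senescent library in both fractions. SERPINH1, which encodes the collagen chaperone HSP47, was listed at 0 in both mitoplast libraries and was at 45.6 FPKM in senescent and 146 in young whole cells.

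Of 13 genes of procollagen processing and crosslinking, 8 were measured between senescent and young whole cells, with 2 higher and 2 lower. PCOLCE, an enhancer of the protease that trims procollagen, was at 5.32 FPKM in senescent whole cells, against 126 in young whole cells, and was listed at 0 in senescent mitoplasts, against 39.9 FPKM in young mitoplasts. LOX, which crosslinks collagen, was at 119 FPKM in senescent and 43.5 in young whole cells. LOXL3, a relative of LOX, was listed at 0 in senescent whole cells, against 18.5 FPKM in young ones. Of 10 collagen receptors 7 were measured there, with 2 higher and 1 lower. ITGA1, the alpha chain of an integrin that binds type IV, was at 18.1 FPKM in senescent and 5.74 in young whole cells. ITGA11, of an integrin for type I, was at 14.7 FPKM in the senescent and 6.12 in the young library. DDR1, a receptor kinase, was listed at 0 in senescent cells, against 18.0 FPKM in young ones. In mitoplasts its order was the reverse, at 9.22 FPKM in the senescent library and listed at 0 in the young one. A value of 0 in whole cells can thus be a failed estimate too. Of 7 collagenases 4 were measured, with 0 higher and 1 lower, namely MMP2, a gelatinase, at 75.3 FPKM in senescent and 270.0 in young whole cells.

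Between senescent and young mitoplasts 32 of the 51 genes were measured, with 6 higher and 13 lower, beside 15.6% and 65.0% of coding genes. By list, 4 of 13 genes of hydroxylation, folding and export were higher and 3 lower, and 0 of 8 processing and crosslinking genes were higher and 5 lower. Of the receptors 1 of 6 was higher and 2 lower, and of the collagenases 1 of 5 was higher and 3 lower. P4HA2, a catalytic subunit of prolyl 4-hydroxylase, was at 13.9 FPKM in senescent mitoplasts, against 2.15 in young mitoplasts. COLGALT1, which adds galactose to hydroxylysine, was at 1.13 FPKM in senescent mitoplasts, against 11.2 in young mitoplasts.

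With mitoplasts set against whole cells, 38 genes of the lists were measured in each age. In senescent cells 4 were higher and 28 lower, beside 13.3% and 70.5% of coding genes. In young cells 2 were higher and 27 lower, beside 18.6% and 36.1% of coding genes. DDR2, a receptor kinase for fibrillar collagen, was listed at 0 in senescent mitoplasts, against 238 FPKM in senescent whole cells. In young cells it was at 9.36 FPKM in mitoplasts, against 299.6 in whole cells. LOXL1, of the crosslinking enzymes, had the reverse order, at 11.4 FPKM in senescent mitoplasts and 18.0 in young mitoplasts. It was listed at 0 in whole cells of both ages, where a 0 can be a failed estimate.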

How the data were processed

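RNA of 4 WI-38 libraries, 1 per group, was sequenced. The authors deposited FPKM values for 393483 transcripts per library, per the file headers. Cufflinks 2.2.1, TopHat2 2.0.14, Cuffdiff and build hg19 were used, per the submitters' processing notes, which give no order. Strand setting, scaling and annotation release: not given in the sources used here. Counts were not among the values, so depth and counting error are unknown.

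Ensembl transcripts (185591) were matched to symbols, types and lengths with GENCODE release 29, and 93.0% had a symbol. Its coordinates, on another build, served only for overlaps of exons. A transcript not listed in a library counted as 0. Protein-coding FPKM was summed per gene with Python 3.11.15, pandas 2.3.3 and numpy 2.4.6. Ratios used a pseudocount of 1 FPKM, a filter of 1 FPKM in either library and a call at a log2 ratio of 1 in size. Their arithmetic was checked on data simulated from genes at 10 FPKM or more, with changes planted beyond the call limit. Those data held no values of 0, so they say nothing on the reliability of the collagen calls. Collagens at 10 FPKM or more in a library are given with all 4 values, the rest in ranges; of the other collagen genes, at most 3 per list and comparison with the largest ratios are named. The alternatives were a pseudocount of 0.1, no filter or 5 FPKM, all annotated transcripts, assembled transcripts added, transcripts of 1000 nt or more, and 2 rescalings. Members and lists were chosen with earlier results of these data known.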

Additional observations from a re-analysis of the deposited data

Results flagged for a closer look

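COL7A1, the chain of anchoring fibrils, had ratios of opposite direction in the 2 fractions. Its log2 ratio of senescent against young was 1.96 in mitoplasts and −1.42 in whole cells. COL24A1, a minor fibrillar chain, did so for both factors, which rest on the same values and are not separate findings. Its log2 ratio of senescent against young was −2.54 in mitoplasts and 1.25 in whole cells, and its log2 ratio of mitoplasts against whole cells was −1.25 in senescent and 2.54 in young cells. With assembled transcripts its ratio of senescent against young whole cells was 0.18 and that of young mitoplasts against young whole cells 0.75, and its young mitoplast value lies in a transcript of 366 nt with an incomplete coding sequence. With 1 library per group these differences were not tested. The senescent mitoplast value of COL7A1 lies in a transcript of 597 nt with an incomplete coding sequence, not listed in young mitoplasts or senescent whole cells. Coding transcripts of COL7A1 of 1000 nt or more were at 0 in both mitoplast libraries. Other annotated transcripts of it, mostly retained introns, held 15.6 FPKM in senescent mitoplasts, and with them its mitoplast ratio was 4.29. Over coding transcripts both genes stayed under 5 FPKM in each library. COL7A1 was listed at 0 in young mitoplasts, and COL24A1 was listed at 0 in senescent mitoplasts and in young whole cells.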

How the results depend on the processing

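No paired analysis was possible because each group has 1 library. Calls that held in all alternatives that gave the gene a value numbered 7 of 14 between senescent and young whole cells, 10 of 19 between senescent and young mitoplasts, 10 of 23 between mitoplasts and whole cells in senescent cells and 19 of 23 in young cells. A pseudocount of 0.1 FPKM and the absence of a filter turned no collagen call round, and filters, short transcripts and scale moved the counts as follows.

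Between senescent and young whole cells 2 of 19 collagens were higher with a filter of 5 FPKM, beside 14.8% of coding genes. With all annotated transcripts 2 of 24 were higher, beside 14.5%, and with assembled ones added 1 of 26, beside 11.9%. With equal sums 7 of 24 were higher and 6 lower, beside 28.3% and 12.9% of coding genes. The median log2 ratio was then 0.16 for the collagens and 0.43 for the coding genes. For the senescent and young mitoplasts the collagen median was −0.26 with all annotated transcripts and −0.13 with assembled ones added, beside −1.25 and −1.23 for the coding genes. It was −0.066 by the median of ratios and 1.60 with equal sums, beside −1.05 and −0.28. With equal sums 14 of 26 collagens were higher and 7 lower, beside 39.7% and 40.1% of coding genes. In this comparison COL16A1 was at 1.54 with all annotated and 1.54 with assembled transcripts. COL5A1 was at 0.40 with assembled ones and COL3A1 at 1.59 with equal sums.

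Between young mitoplasts and young whole cells 1 of 18 collagens was higher with a filter of 5 FPKM, beside 15.7% of coding genes. With assembled transcripts 2 of 29 were higher, beside 16.8%, and with transcripts of 1000 nt or more 2 of 24, beside 14.7%. The median was −2.36 with equal sums, beside −1.01 for the coding genes, and COL15A1 was at −1.43 with assembled transcripts. Between senescent mitoplasts and senescent whole cells 1 of 19 was higher with a filter of 5 FPKM, beside 13.3% of coding genes. With all annotated transcripts 7 of 27 were higher, beside 18.5%, and with assembled ones 7 of 27, beside 15.5%. The median of ratios gave 5 of 25 higher and 8 lower, beside 20.5% and 52.0% of coding genes. Equal sums gave 5 of 25 higher and 8 lower, beside 21.2% and 52.7%. The medians were −0.41 and −0.34 under these 2 scalings, beside −1.07 and −1.10 for the coding genes. COL16A1 was at 2.23 with all annotated and 1.31 with assembled transcripts, COL13A1 at 0.084 by the median of ratios and 0.16 with equal sums, and COL4A1 at 0.23 and 0.31 under the same 2 scalings. The causes were not tested.

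The collagen share of coding FPKM with transcripts of 1000 nt or more was 0.980% in senescent mitoplasts, 0.622% in young mitoplasts, 1.54% in senescent whole cells and 3.55% in young whole cells. Weighted by length it was 2.18% in senescent mitoplasts, 1.01% in young mitoplasts, 2.41% in senescent whole cells and 4.88% in young whole cells. It was 0.435% in young mitoplasts without mitochondrial genes and 0.492% in senescent whole cells with assembled transcripts.

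Alternatives chosen after seeing the data were transcripts listed in both libraries and genes at 10 FPKM or more in the library set against. In genes at that level, 1 of 17 collagens was higher and 7 lower between senescent and young whole cells. Of 3919 coding genes 6.23% were higher and 28.4% lower there. Between senescent and young mitoplasts 0 of 11 collagens were higher and 6 lower, beside 2.81% and 78.8% of 2922 coding genes. With mitoplasts set against whole cells 0 of 16 were higher in senescent and 0 of 17 in young cells. The shares of coding genes higher were 1.36% in senescent and 5.64% in young cells.

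Depth is unknown. Values of 0, in whole cells as in senescent mitoplasts, can be failed estimates, so ratios against them are set by the pseudocount. Short transcripts carry COL4A2 and COL10A1. The makeup of the collagen message does not depend on the scale of a library.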
